A study of Mus musculus with 6 samples.

Results

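Sialyltransferases are the Golgi enzymes that cap glycan chains with sialic acid, and the 10 described here are St6gal1, St3gal1 to St3gal6, St6galnac4, St6galnac6 and St8sia4. They were chosen by gene symbol as enzymes that act on glycans of T cells, out of 18046 genes listed in every library. Earlier results of these libraries, among them the lower level of St6gal1 with LPC, were known when the list was drawn up. The values and calls of the 10 genes therefore describe these libraries, and their adjusted p-values place them in the table of all genes without giving independent evidence about the family. A further 10 sialyltransferase genes of the mouse were listed in the files and are given beside them. RNA came from naive CD4+ T cells of C57BL/6 mouse spleen (age 3 weeks in the labels), which were given CD3 and CD28 antibodies for 3 days in a Th1-polarizing (T helper 1) culture. All libraries share this activation and polarization, and they differ in the agent, which was a vehicle (3 libraries) or LPC at 20 µM (3 libraries). The labels neither spell out LPC nor name the vehicle. It is not stated either if a group's libraries are separate mice or cultures, so every p-value here rests on a spread between libraries that may be technical.

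Sialic acid is activated in the nucleus as CMP-sialic acid, carried into the Golgi and moved by each enzyme to one kind of acceptor. The family is divided by the bond that is made. ST3Gal enzymes join sialic acid to carbon 3 of galactose, ST6Gal enzymes to carbon 6 of galactose, ST6GalNAc enzymes to carbon 6 of N-acetylgalactosamine, and ST8Sia enzymes to carbon 8 of another sialic acid. On T cells the caps are known to change with activation and to affect binding by galectins, Siglecs and selectins. Only transcripts were measured here, not glycans or enzyme activity.

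Expression was measured by RNA sequencing as FPKM, fragments per kilobase of exon scaled to the number of mapped reads, which allows levels of different genes to be set side by side. Each library held 10002 to 10139 genes at 1 FPKM or more, at an estimated depth of 19.0 to 19.5 M reads. LPC replicate 3 stood apart, with the largest FPKM sum (641026, against 556561 to 588274 in the others), the fewest genes at 0 (17.9%, against 19.4% to 20.2%) and lower values of long transcripts. For the 1005 tested genes with the longest transcripts its median log2 deviation from the gene means was -0.25. The value was -0.02 and 0.07 in LPC replicates 1 and 2, and 0.06, 0.15 and -0.002 in vehicle replicates 1 to 3. The length trend was therefore not fully separate from the agent. T cell markers Cd3d, Cd3e, Cd3g, Cd4, Cd2 and Cd28 summed to 1351 to 1391 FPKM with vehicle and 1318 to 1372 with LPC. Across the 10138 genes tested with limma on log2(FPKM + 1), 1392 passed an adjusted p of 0.05, of which 42.4% were higher with LPC (53.1% after median centring). That count fell to 493 or 549 with vehicle replicate 1 or 2 left out and to 692 with LPC replicate 1 left out.

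The 10 genes covered a wide range of levels, which are per length and comparable between genes. With vehicle the order of mean level was St6galnac4, St3gal4, St3gal1, St6gal1, St8sia4, St6galnac6, St3gal2, St3gal3, St3gal6 and St3gal5, from 41.0 ± 0.978 FPKM for St6galnac4 to 0.917 ± 0.166 FPKM for St3gal5 (SD, n = 3). No neighbours in that order overlapped between libraries. With LPC the order was the same except that St6gal1 came after St8sia4 and St6galnac6. In the LPC libraries St8sia4 overlapped St6galnac6, and St6galnac6 overlapped St6gal1. The sum over the 10 genes was 139 ± 1.70 FPKM with vehicle and 134 ± 8.26 FPKM with LPC (SD, n = 3 each), and these ranges overlapped. Of the other 10 sialyltransferase genes, St8sia1 and St8sia6 passed the filter of 1 FPKM in 3 libraries, and the other 8 reached at most 0.2 FPKM in any library.

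**Figure D1:**
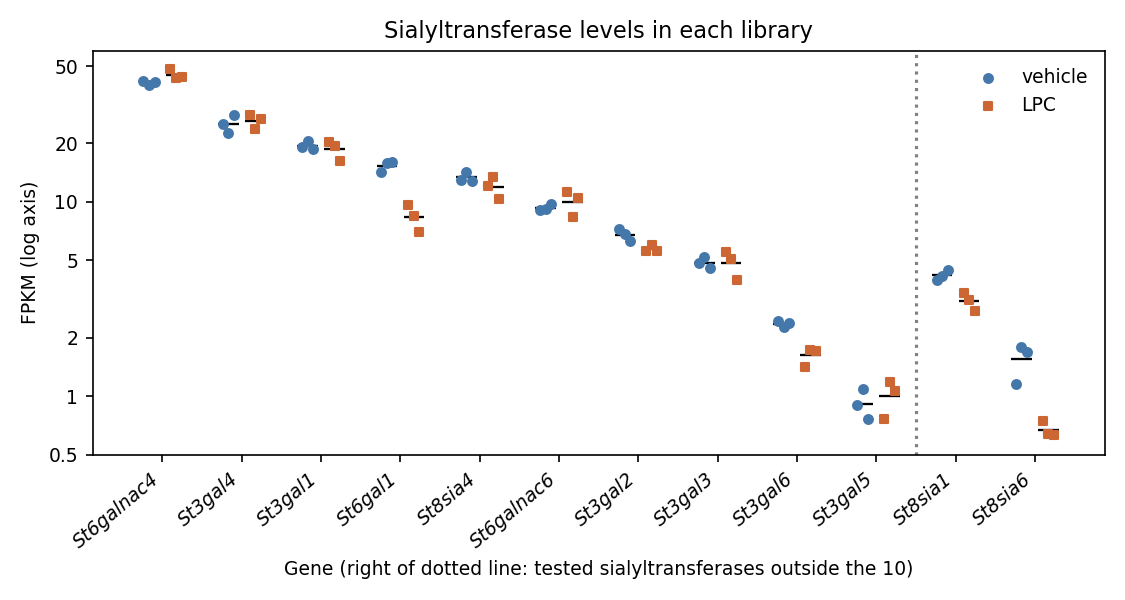
FPKM of each sialyltransferase gene in each library (log axis), with vehicle as circles, LPC as squares and the mean of 3 libraries as a black bar. St6gal1, St3gal6, St8sia1 and St8sia6 have all LPC points below all vehicle points, as does St3gal2 by a smaller margin, while St6galnac4 has all LPC points above.

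All 10 genes passed the filter on low values. With LPC, 2 of them were lower at an adjusted p under 0.05 (limma, Benjamini-Hochberg over all tested genes), St6gal1 and St3gal6, and 0 were higher. By the same threshold 7.91% of all tested genes were lower and 5.82% higher. At an unadjusted p under 0.05 the counts were 3 lower and 0 higher, beside 17.9% lower and 12.2% higher of all tested genes. The vehicle and LPC libraries did not overlap for 4 of the 10, with 3 lower and 1 higher, against 20.7% lower and 13.7% higher over all tested genes. The median log2 change of the 10 was -0.03, and that of all tested genes was -0.04. Nothing is read from these counts, since the list was drawn up with this contrast known. Among the LPC libraries, replicate 3 was the lowest for 5 of the 10 genes and the highest for 0. In bulk RNA a lower level can mean fewer cells of a type or less RNA per cell, and these cannot be told apart.

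**Figure D2:**
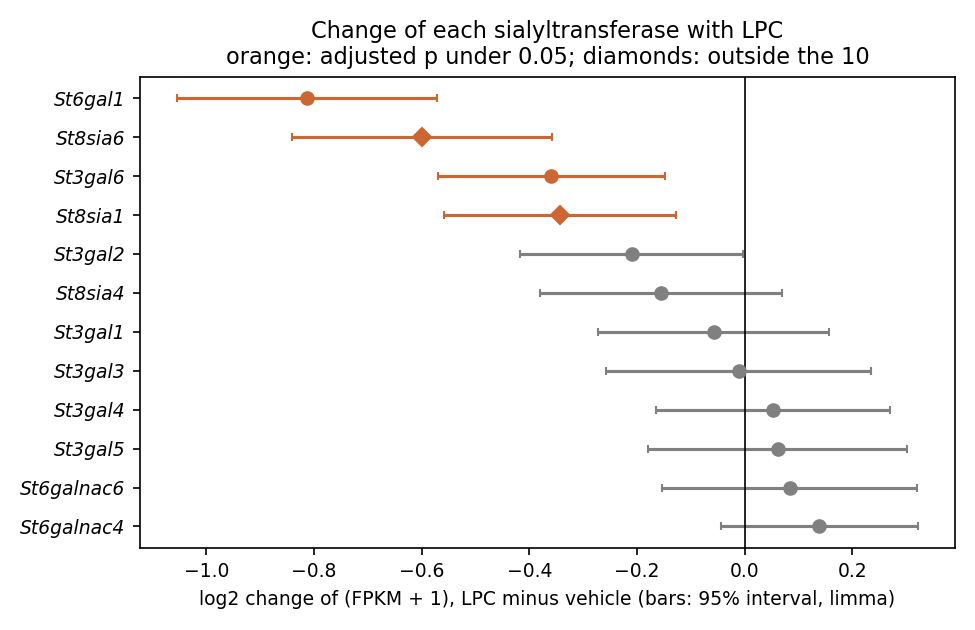
Log2 change of (FPKM + 1), LPC minus vehicle, with its 95% interval from limma (3 libraries a group), for the 12 tested sialyltransferase genes. On this scale St6gal1 lies lowest at -0.81. In mean FPKM the fold of vehicle over LPC was larger for St8sia6 (2.30) than for St6gal1 (1.84). The 8 grey genes did not pass the threshold, of which St3gal2 is the nearest at -0.21.

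St6gal1 encodes the enzyme that puts sialic acid on carbon 6 of galactose at the tips of N-glycans, which makes the ligand of the B cell lectin CD22. It is gene 20440 in the files and lies on chromosome 16 of GRCm38 from 23224729 to 23360350. It was listed at 14.24, 15.92 and 16.01 FPKM with vehicle and at 9.68, 8.45 and 7.01 FPKM with LPC, in replicate order. Every LPC library was below every vehicle library, and LPC replicate 3 was the lowest. The mean fell from 15.4 ± 0.997 to 8.38 ± 1.34 FPKM (SD, n = 3 each), 1.84-fold higher with vehicle, with a log2 change of -0.81 (SE 0.11, limma adjusted p = 0.00103). At the estimated depth these values stand for about 1145 to 1304 reads with vehicle and 556 to 778 with LPC, over a median transcript length of 4177 bases. The log2 change was -0.70 without LPC replicate 3, and -0.74 after removal of each library's trend with transcript length and GC share.

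B cells are rich in St6gal1, so their markers are given beside it. The 6 B cell markers Cd79a, Cd79b, Ms4a1, Cd22, Pax5 and Blk stayed under 1 FPKM in all libraries. Their sum was 1.1 to 1.15 FPKM with vehicle and 0.54 to 0.97 FPKM with LPC. The highest was Cd79b, at 0.63, 0.57 and 0.44 FPKM with vehicle and 0.29, 0.18 and 0.53 FPKM with LPC. The part of these cells in the St6gal1 value was not tested. Markers of macrophages and monocytes (5), NK cells (3) and the erythroid and platelet lineage (5) also stayed under 1 FPKM in every library. Among the 3 listed neutrophil markers S100a9 and Csf3r did so too, while Ly6g was listed at 3.01 to 4.74 FPKM with vehicle and 8.58 to 16.62 FPKM with LPC. Of 4 dendritic cell markers Zbtb46 alone passed the filter, at 2.72 to 2.87 FPKM with vehicle and 1.17 to 1.5 FPKM with LPC, and of 3 plasma cell markers Sdc1 alone did, at 1.85 to 2.15 and 1.21 to 1.52 FPKM. Cd8a reached 0.33 FPKM, and Cd8b1 was listed at 13.35 to 14.19 FPKM with vehicle and 10.57 to 12.55 FPKM with LPC. The part of these cells in the results was not tested either.

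St6gal1 has several start sites, and gene-level FPKM does not tell which of them was used. The 250 bases before each of its 3 start sites in the RefSeq promoter table (GRCm38.p6) are shown to let the starts be compared with those of other members. Some short motifs were searched on both strands, and matches are in capitals: the GC box GGGCGG, the E-box CACGTG, the ETS core CCGGAA, the AP-1 site TGANTCA and the STAT site TTCNNNGAA. In the printed windows no match overlapped that of another motif.
St6gal1 upstream start, chr16:23224490-23224739, plus strand: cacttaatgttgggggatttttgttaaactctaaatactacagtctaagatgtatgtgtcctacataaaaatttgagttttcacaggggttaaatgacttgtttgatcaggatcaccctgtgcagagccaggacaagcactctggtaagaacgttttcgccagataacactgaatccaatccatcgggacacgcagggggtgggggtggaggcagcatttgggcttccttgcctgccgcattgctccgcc
St6gal1 middle start, chr16:23225771-23226020, plus strand: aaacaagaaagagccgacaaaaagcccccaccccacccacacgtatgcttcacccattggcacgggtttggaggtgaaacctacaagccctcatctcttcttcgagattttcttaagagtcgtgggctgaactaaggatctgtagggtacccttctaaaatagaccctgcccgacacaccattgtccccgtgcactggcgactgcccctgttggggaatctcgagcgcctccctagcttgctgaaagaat
St6gal1 downstream start, chr16:23290220-23290469, plus strand: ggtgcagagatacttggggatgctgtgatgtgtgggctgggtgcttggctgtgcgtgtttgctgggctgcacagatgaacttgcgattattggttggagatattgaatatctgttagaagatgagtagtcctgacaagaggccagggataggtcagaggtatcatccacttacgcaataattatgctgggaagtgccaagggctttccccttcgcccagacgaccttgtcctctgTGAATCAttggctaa
None of the 3 windows held a GC box, and their GC content was 47.2%, 52.8% and 49.6%. The single match was an AP-1 site in the window of the downstream start. Of all 32851 RefSeq windows of this length, 32.7% held a GC box, 6.75% an AP-1 site, 6.02% an E-box, 7.02% a STAT site and 12.03% an ETS core, and the median GC content was 52.4%. These letters describe the windows and were not tied to the change.

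The windows of 3 more members are shown for contrast, St3gal6 as the other gene that was lower, and St6galnac4 and St8sia4 as abundant members that did not pass the test.
St3gal6 upstream start, chr16:58524254-58524503, minus strand: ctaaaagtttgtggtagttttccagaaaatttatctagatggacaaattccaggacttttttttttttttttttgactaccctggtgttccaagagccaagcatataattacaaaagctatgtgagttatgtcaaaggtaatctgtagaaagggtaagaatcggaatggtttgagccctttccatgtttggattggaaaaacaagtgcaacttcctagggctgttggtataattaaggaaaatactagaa
St6galnac4, chr2:32586828-32587077, plus strand: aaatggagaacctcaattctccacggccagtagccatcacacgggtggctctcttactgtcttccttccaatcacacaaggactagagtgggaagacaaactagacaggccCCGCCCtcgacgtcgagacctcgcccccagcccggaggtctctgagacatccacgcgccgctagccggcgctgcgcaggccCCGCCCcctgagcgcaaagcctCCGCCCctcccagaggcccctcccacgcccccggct
St8sia4, chr1:95667595-95667844, minus strand: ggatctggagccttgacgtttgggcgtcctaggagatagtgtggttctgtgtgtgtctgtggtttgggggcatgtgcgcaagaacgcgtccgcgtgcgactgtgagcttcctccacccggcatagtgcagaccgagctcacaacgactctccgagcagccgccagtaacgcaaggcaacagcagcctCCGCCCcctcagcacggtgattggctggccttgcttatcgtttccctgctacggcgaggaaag
St6galnac4 had 3 GC boxes at a GC content of 65.2%, and St8sia4 had 1 at 60.4%. The St3gal6 window had none of these motifs and a GC content of 34.8%. A second St3gal6 start, whose window runs into annotated exons and is not printed, had 4 GC boxes at a GC content of 64.4%. The table held windows for 8 of the 10 members, and those of St3gal3, St3gal4 and St3gal5 had 2, 3 and 2 GC boxes, that of St3gal3 also 1 ETS core. The St6galnac6 window, which lies over the end of St6galnac4, had none of the motifs.

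St3gal3, St3gal4 and St3gal6 encode enzymes that put sialic acid on carbon 3 of galactose in chains with N-acetylglucosamine, the acceptor class that St6gal1 shares. St3gal4 and St3gal6 are known for the sialyl-Lewis X ligands of selectins. St3gal6 was listed at 2.44, 2.27 and 2.37 FPKM with vehicle and at 1.41, 1.74 and 1.72 FPKM with LPC, in replicate order. The groups did not overlap. Its log2 change was -0.36 (SE 0.10, limma adjusted p = 0.0301), at an estimated 180 to 194 reads with vehicle and 112 to 138 with LPC. The call was lost when any vehicle library was left out (limma adjusted p = 0.12, 0.0788 and 0.0653 for replicates 1 to 3) and when LPC replicate 1 was (0.104). It was also lost with no filter (0.0752), after median centring (0.0505) or quantile normalization (0.0675), and after removal of length and GC trends (log2 change -0.24, 0.0871). Exons of St3gal6 share 1603 bases with exons of Dcbld2 on the opposite strand in GENCODE M21. Dcbld2 was listed at 0.14 to 0.22 FPKM in all libraries, and the labels do not say whether counting used the strand. St6gal1 and St3gal4 also share 200 and 412 exon bases with the antisense genes BC106179 and 4930581F22Rik. If counting did not use the strand, reads there could not be told apart.

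St3gal4, the most abundant of these 3, was listed at 25.04, 22.74 and 28.01 FPKM with vehicle and at 28.1, 23.75 and 26.79 FPKM with LPC. The groups overlapped and the change did not pass (0.05, 95% interval -0.16 to 0.27, limma adjusted p = 0.765). St3gal3 was listed at 4.84, 5.19 and 4.57 FPKM with vehicle and at 5.53, 5.09 and 3.95 FPKM with LPC, with a log2 change of -0.01 (interval -0.26 to 0.23). The ratio of St6gal1 to the sum of these 3 genes does not depend on the scaling of a library. It was 0.441, 0.527 and 0.458 with vehicle and 0.276, 0.276 and 0.216 with LPC, in replicate order. All LPC ratios lay below all vehicle ratios, and St3gal4 makes up most of the sum. The ratio of St3gal6 to St3gal4 was also lower with LPC, at 0.0974, 0.0998 and 0.0846 with vehicle and 0.0502, 0.0733 and 0.0642 with LPC. A trend with transcript length can still enter both ratios. The median lengths were 4177 bases for St6gal1 and 4123 for St3gal6, against 2095 for St3gal4. Both ratios are descriptions, since the level of St6gal1 was known beforehand.

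**Figure D3:**
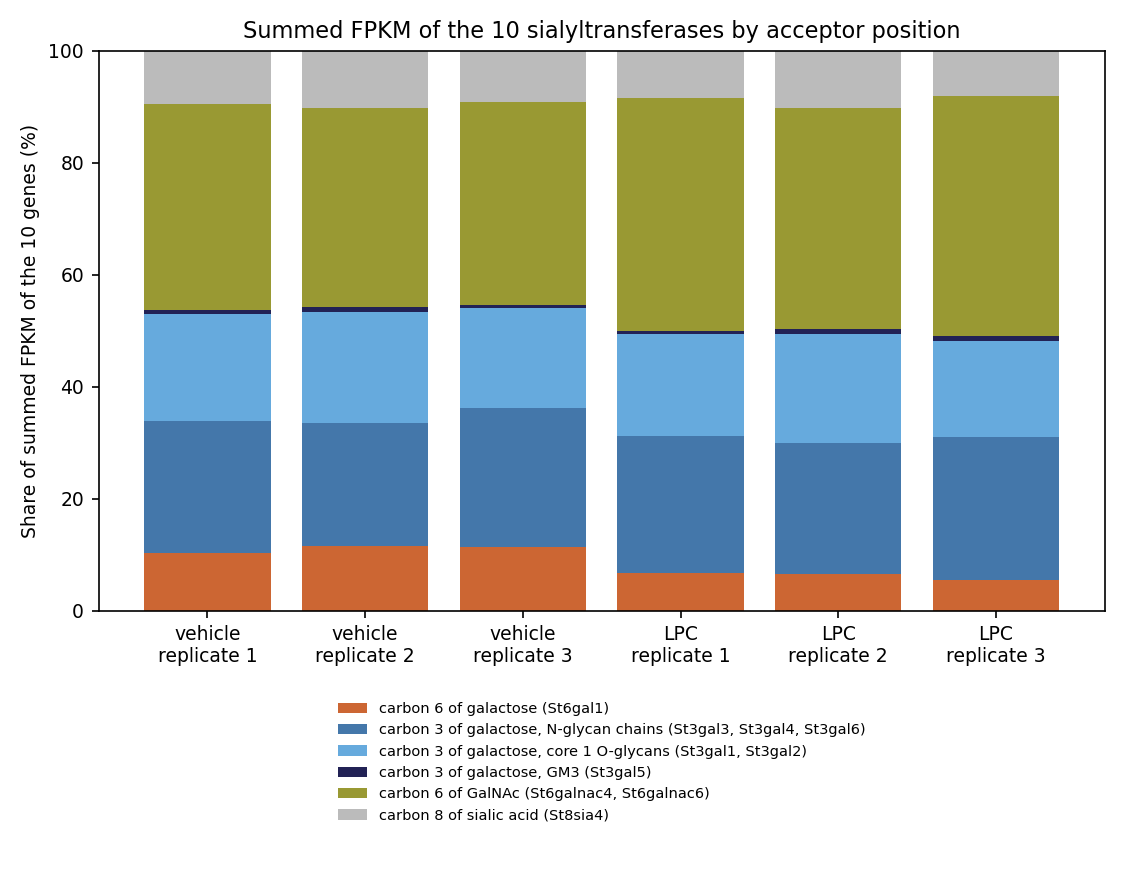
Share of the summed FPKM of the 10 sialyltransferases held by each acceptor position, per library (stacked to 100%). The bottom block, St6gal1, held 10.3% to 11.5% with vehicle and 5.50% to 6.77% with LPC, and the block of St6galnac4 and St6galnac6 held 35.6% to 36.9% and 39.5% to 42.9%.

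St3gal1 and St3gal2 encode enzymes that cap the galactose of core 1 O-glycans, the short mucin-type chains that are dense on CD43 and CD45. St3gal1 was listed at 19.11, 20.56 and 18.8 FPKM with vehicle and at 20.47, 19.46 and 16.33 FPKM with LPC. The groups overlapped, with a log2 change of -0.06 (interval -0.27 to 0.16, limma adjusted p = 0.736). St3gal2, which also acts on gangliosides, was listed at 7.23, 6.87 and 6.26 FPKM with vehicle and at 5.58, 6.03 and 5.57 FPKM with LPC. Its LPC libraries were all below its vehicle libraries, yet the log2 change of -0.21 (interval -0.42 to -0.00) did not pass after adjustment (limma adjusted p = 0.162). Together the pair held 18.9% ± 1.06 of the summed FPKM of the 10 genes with vehicle and 18.3% ± 1.15 with LPC (SD, n = 3 each).

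St6galnac4 and St6galnac6 encode enzymes that add a further sialic acid to carbon 6 of N-acetylgalactosamine, St6galnac4 on O-glycans that ST3Gal enzymes have already capped and St6galnac6 on gangliosides and related chains. St6galnac4 was the most abundant of the 10 genes, at 41.76, 39.87 and 41.25 FPKM with vehicle and 48.22, 43.37 and 44.13 FPKM with LPC. Its LPC libraries all lay above its vehicle libraries, but the log2 change of 0.14 (interval -0.04 to 0.32) did not pass (limma adjusted p = 0.29). St6galnac6 was listed at 9.05, 9.15 and 9.79 FPKM with vehicle and at 11.2, 8.34 and 10.49 FPKM with LPC, and the groups overlapped (0.08, interval -0.15 to 0.32). The 2 genes are neighbours on chromosome 2 on the same strand. St6galnac4 ends at 32599696 and St6galnac6 starts at 32599709 in RefSeq, with 12 bases between them. How reads near this border were assigned was not tested. Their joint share of the summed FPKM of the 10 genes was 36.3% ± 0.675 with vehicle and 41.3% ± 1.68 with LPC (SD, n = 3 each). Since St6gal1 is part of that sum, the share of all other members together is higher where its own share is lower. Their single shares moved both ways with LPC. The mean share of St3gal3, St3gal4 and St3gal6 went from 23.4% to 24.5%, and that of St8sia4 from 9.64% to 8.94%. How far the lower St6gal1 accounts for the higher share of the St6galnac4 and St6galnac6 pair was not tested.

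St3gal5 encodes the enzyme that makes the ganglioside GM3 from lactosylceramide and was the least abundant of the 10 genes. It was listed at 0.9, 1.09 and 0.76 FPKM with vehicle and at 0.76, 1.19 and 1.06 FPKM with LPC, which is about 34 to 54 reads a library. The groups overlapped (log2 change 0.06, interval -0.18 to 0.30). Its SE of 0.11 was close to the median SE of all tested genes, 0.10, but log2(FPKM + 1) compresses both change and spread at this low level. With a pseudocount of 0.1 its log2 change was 0.11 (limma adjusted p = 0.757).

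St8sia4 encodes a polysialyltransferase, which builds chains of sialic acid on other sialic acids. It was listed at 13.04, 14.18 and 12.87 FPKM with vehicle and at 12.13, 13.37 and 10.33 FPKM with LPC. The groups overlapped and the log2 change of -0.16 (interval -0.38 to 0.07) did not pass (limma adjusted p = 0.333). Its median transcript length of 7708 bases was the longest of the 10, and LPC replicate 3 gave its lowest value. After removal of length and GC trends its log2 change was 0.03. Nrp2, a known carrier of polysialic acid, was listed at mean levels of 0.0233 (vehicle) and 0.0267 (LPC) FPKM.

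The related enzymes St8sia1 and St8sia6, outside the 10 genes, were also lower with LPC. St8sia1 encodes the enzyme that makes GD3 from GM3. It was listed at 3.96, 4.17 and 4.44 FPKM with vehicle and at 3.39, 3.14 and 2.76 FPKM with LPC (log2 change -0.34, SE 0.10, limma adjusted p = 0.0385). The groups did not overlap, but the call was lost when any library but LPC replicate 2 was left out (limma adjusted p = 0.0563 to 0.119), with no filter (0.112), after median centring (0.0504) or quantile normalization (0.0681), and after removal of length and GC trends (-0.18, 0.185). St8sia6 encodes an enzyme that adds a second sialic acid on O-glycans. It was listed at 1.16, 1.79 and 1.7 FPKM with vehicle and at 0.75, 0.64 and 0.63 FPKM with LPC (log2 change -0.60, limma adjusted p = 0.0053). Its mean FPKM was 2.30-fold higher with vehicle. With a pseudocount of 0.1 its log2 change was -1.07, against -0.88 for St6gal1. All 3 of its vehicle libraries and none of its LPC libraries reached 1 FPKM, so it entered the test only through the group where it was high, and its call is no support for a family pattern.

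**Figure D4:**
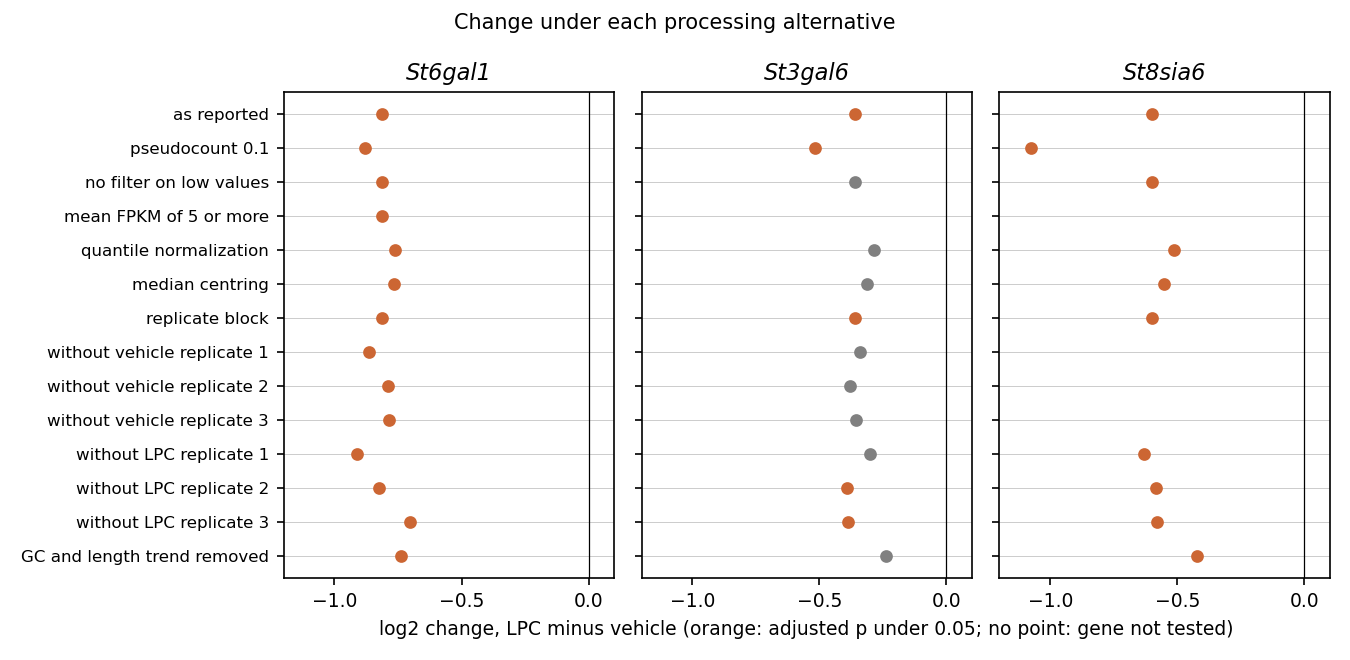
Log2 change of St6gal1, St3gal6 and St8sia6 as reported and under 13 processing alternatives, orange where the adjusted p is under 0.05 and grey where it is not. St6gal1 stays between -0.91 and -0.70 and orange throughout, St3gal6 turns grey in 8 of 12 alternatives, and St8sia6 could not be tested where a vehicle library was left out or low genes were removed.

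Genes of sialic acid metabolism, among them those that supply the sugar donor, gave 1 call. It was not among Gne, Nans, Nanp, Cmas and Slc35a1. Of 8 such genes 7 were tested, with 1 lower and 0 higher (limma; 2 lower and 0 higher at an unadjusted p under 0.05). Over all tested genes 7.91% were lower and 5.82% higher (17.9% and 12.2% at an unadjusted p under 0.05). Gne, the rate-limiting enzyme of sialic acid synthesis, was listed at 9.44, 8.45 and 9.98 FPKM with vehicle and at 11.46, 9.88 and 8.8 FPKM with LPC (log2 change 0.10, interval -0.14 to 0.33). Cmas, which makes CMP-sialic acid, was listed at 46.0 ± 4.01 and 47.2 ± 3.84 FPKM (SD, n = 3 each; 0.04, interval -0.17 to 0.25). Slc35a1, its carrier into the Golgi, was listed at 4.14 ± 0.297 and 4.16 ± 0.444 FPKM (0.00, interval -0.22 to 0.22). Cmah, which converts CMP-Neu5Ac to CMP-Neu5Gc, was listed at 12.4 ± 0.600 and 12.9 ± 1.32 FPKM (0.05, interval -0.16 to 0.26). The call was Renbp, an epimerase of N-acetylglucosamine, at 4.44, 3.63 and 3.95 FPKM with vehicle and 3.34, 2.37 and 2.72 with LPC (-0.40, limma adjusted p = 0.0352), and it was lost with vehicle replicate 1 or 3 left out (0.158 and 0.0618), with LPC replicate 2 or 3 left out (0.0764 and 0.0548), with no filter (0.132), with quantile normalization (0.0854) and after median centring (0.0801). Among 7 genes that remove or modify sialic acid, 5 were tested, and 0 passed in either direction (limma; 1 higher and 1 lower at an unadjusted p under 0.05). Neu1, the lysosomal sialidase, was listed at 7.69 ± 0.163 and 8.36 ± 0.872 FPKM (0.10, interval -0.11 to 0.32).

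Enzymes that build the chains to be capped gave 1 call in each of their lists, and over all tested genes 13.7% passed in either direction. At an unadjusted p under 0.05, 17.9% of all tested genes were lower and 12.2% higher. Of 12 tested mucin-type O-glycan enzymes 1 was lower and 0 were higher (limma; 3 and 0 at an unadjusted p under 0.05). C1galt1, which makes core 1, the acceptor of St3gal1, was listed at 9.56, 11.11 and 9 FPKM with vehicle and at 6.9, 7.79 and 6.2 FPKM with LPC, without overlap (log2 change -0.45, SE 0.11, limma adjusted p = 0.0168). That call was lost with vehicle replicate 1 or 2 left out (0.0569 and 0.0919), with LPC replicate 1 left out (0.0612) and with no filter (0.081). Gcnt1, the core 2 branching enzyme, reached at most 0.46 FPKM and was not tested. Of 17 tested N-glycan enzymes 1 was lower and 0 were higher (limma; 6 lower and 1 higher at an unadjusted p under 0.05). The lower one was Mgat4a, a branching enzyme, at 3.79, 4.54 and 4.2 FPKM with vehicle and 2.88, 3.17 and 2.21 FPKM with LPC (-0.47, limma adjusted p = 0.0178), which was lost without vehicle replicate 2 (0.0682) or LPC replicate 1 (0.0517) and with no filter (0.0939). B4galt1, which adds the galactose that St6gal1 caps, had a log2 change of -0.21 (limma adjusted p = 0.114). It is named here after its values were seen.

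Among 5 tested fucosyltransferase and sialyl-Lewis X genes 1 was higher and 0 were lower (limma; the same counts at an unadjusted p under 0.05). It was Chst2, a sulfotransferase of selectin ligands, at 12.66, 11.1 and 10.3 FPKM with vehicle and 14.68, 16.15 and 14.47 FPKM with LPC (log2 change 0.39, limma adjusted p = 0.0237), lost with vehicle replicate 2 or 3 left out (0.0854 and 0.0917), with LPC replicate 1 left out (0.0593) and with no filter (0.074). Of 8 tested ganglioside genes 0 passed in either direction (limma; 3 lower and 0 higher at an unadjusted p under 0.05). Beside both lists, 7.91% of all tested genes were lower and 5.82% higher (17.9% and 12.2% at an unadjusted p under 0.05). Ugcg, which starts glycosphingolipid synthesis, was listed at 14.7 ± 0.575 and 12.3 ± 0.589 FPKM (-0.24, limma adjusted p = 0.0898, interval -0.44 to -0.05).

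Over all tested genes 7.91% were lower and 5.82% higher (17.9% and 12.2% at an unadjusted p under 0.05). Of 11 tested glycoproteins of the T cell surface 1 was lower and 0 were higher (limma; 3 and 0 at an unadjusted p under 0.05). The lower one was the death receptor gene Fas, whose sialylation by St6gal1 has been described, at 39.44, 39.1 and 41.31 FPKM with vehicle and 28.86, 32.23 and 30.12 FPKM with LPC (log2 change -0.38, limma adjusted p = 0.0117; 0.0563 without vehicle replicate 1). Spn, which encodes the sialomucin CD43, was listed at 99.8 ± 9.17 and 90.3 ± 10.6 FPKM (-0.15, interval -0.37 to 0.08). Ptprc, which encodes CD45, was listed at 188 ± 7.41 and 156 ± 19.8 FPKM (-0.27, limma adjusted p = 0.0956, interval -0.49 to -0.05). Its change passed without LPC replicate 2 (0.0451).

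Among lectins that read galactose and sialic acid, the 9 Siglec family genes reached at most 0.56 FPKM and were not tested. Of 4 tested galectin genes 1 was higher and 1 lower. Lgals1 encodes galectin-1, whose binding to T cells is known to be blocked by the cap that St6gal1 makes. It was listed at 374.59, 366.42 and 502.69 FPKM with vehicle and at 644.48, 455.18 and 795.83 FPKM with LPC (log2 change 0.59, SE 0.17, limma adjusted p = 0.0409). The groups overlapped through LPC replicate 2 and vehicle replicate 3, and the call was lost with vehicle replicate 1 or 2 left out (0.145 and 0.0972) and with LPC replicate 1 or 3 left out (0.138 and 0.0916). It was also lost with no filter (0.191), with quantile normalization (0.0532) and after median centring (0.0898). Lgals8, which encodes galectin-8, was lower, at 5.59, 5.46 and 5.77 FPKM with vehicle and 3.03, 3.7 and 3.63 FPKM with LPC (-0.57, limma adjusted p = 0.00349). Over the 8 related lists together, 7 of 69 tested genes passed in either direction (10.1%), against 13.7% of all tested genes. The median log2 change of the lists ran from -0.19 (ganglioside genes) to 0.22 (fucosyltransferase and sialyl-Lewis X genes), beside -0.04 for all tested genes.

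**Figure D5:**
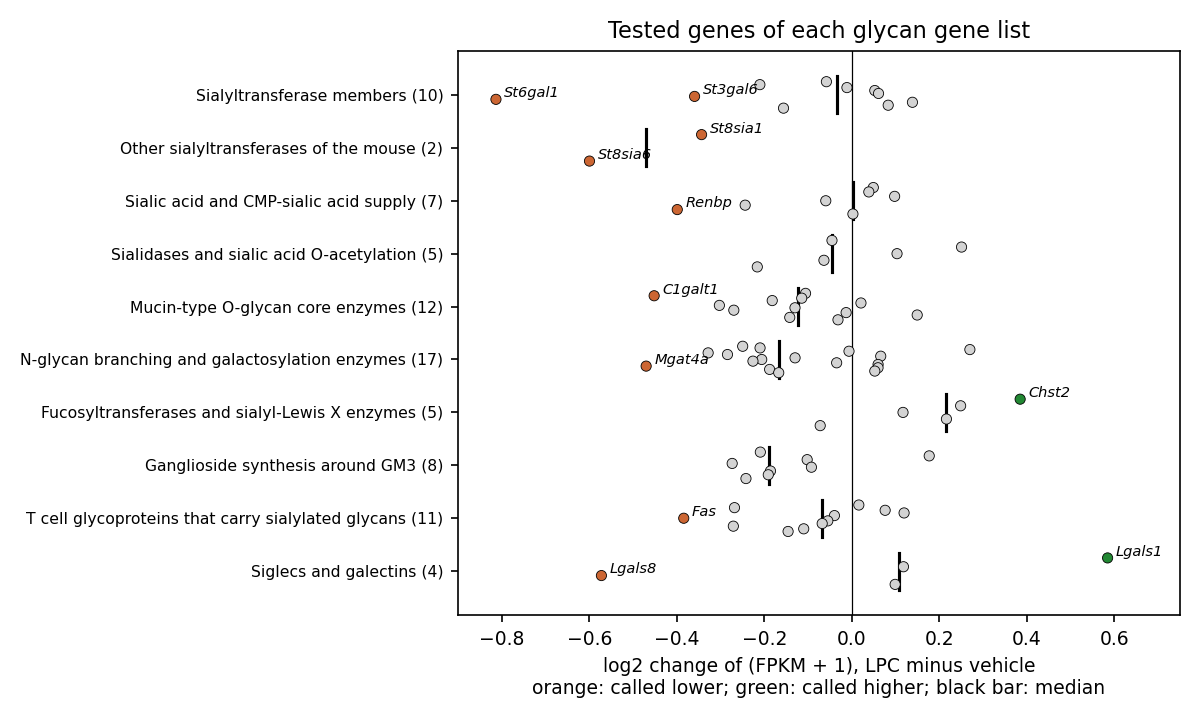
Log2 change of (FPKM + 1), LPC minus vehicle, of every tested gene in the sialyltransferase lists and 8 related glycan lists, with the number tested in brackets and the list median as a black bar. St6gal1 at -0.81 and Lgals1 at 0.59 are the ends of the plotted range, and most other genes are grey, which marks those that did not pass.

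The genes whose 6 values lay nearest to those of St6gal1, by Euclidean distance between log2(FPKM + 1) values centred on each gene's mean, were Pacsin1, Hspb6 and Ttyh3 of 10128 genes compared. Their distances were 0.108, 0.154 and 0.167, against a median of 1.02. Pacsin1 was listed at 12.25, 13.54 and 12.9 FPKM with vehicle and at 7.67, 6.63 and 5.46 FPKM with LPC. The order of its libraries was that of St6gal1 within LPC but not within vehicle. This likeness is a description over 6 libraries that share the contrast and the same LPC replicate 3.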

How the data were processed

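Per the labels' protocols, BGISEQ-500 reads were aligned with Bowtie2 to GRCm38 and quantified with RSEM. Tool versions: not given in the sources used here. Values deposited per library are FPKM, calculated by the authors and rounded to hundredths, 1 file per library for 18046 genes. FPKM is relative to each library's total. Depth was estimated from the steps of values of 0.03 to 0.3 FPKM in genes with 1 listed transcript (mean distance to a whole read 0.180 to 0.184, against 0.237 or more with lengths shuffled). Read numbers use GENCODE M21 transcript lengths and carry the error of that estimate. Coordinates come from RefSeq GRCm38.p6, the authors' build, matched by gene identifier (99.3% matched). Date-like symbols (24) were restored the same way.

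The test was limma-trend (limma 3.58.1, R 4.3.3) with the group alone in the model. It used log2(FPKM + 1) for 10138 genes that reached 1 FPKM in 3 libraries, with Benjamini-Hochberg adjustment over all of them and a threshold of 0.05. FPKM is not a count, so no count test was used. Log2 changes are LPC minus vehicle and understate changes of low genes. The fit was tested on simulated data with normal noise drawn independently for each gene. It recovered 70% of 100 genes changed 1.5-fold in FPKM + 1 and 97% of 100 genes changed 2-fold in FPKM + 1, with 8 false calls among 175. For low genes such a change is a larger fold in FPKM, so these shares do not hold for the same fold in FPKM. Smaller changes were not simulated, so a gene that did not pass may still have changed. The members and gene lists were chosen with earlier results of these data known. Named genes were all 20 sialyltransferases, 10 pathway genes whatever their result, up to 4 called genes of each list, the marker lists (1 marker is not reported here) and the 3 genes nearest to St6gal1. Alternatives were a pseudocount of 0.1, no filter, a mean FPKM of 5 or more, quantile normalization, median centring, a replicate block and leaving out each library; removal of each library's trend with transcript length and GC share (natural splines, 4 degrees of freedom, 99.1% of tested genes) was chosen after seeing the data.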

Additional observations from a re-analysis of the deposited data

How the results depend on the processing

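St6gal1 was lower with LPC at an adjusted p under 0.05 in all 13 alternatives (limma log2 change -0.91 to -0.70, adjusted p = 5.35e-05 to 0.0294). The number of members called lower, 2 as reported, was 1 with no filter on low values, with quantile normalization, with median centring and after removal of length and GC trends. It was also 1 with a mean FPKM of 5 or more, which leaves St3gal3, St3gal5 and St3gal6 untested, and 1 to 2 when a library was left out. The cause was not tested. The number called higher was 0 throughout, among the members that each alternative tested. St3gal5 was also untested with vehicle replicate 2, LPC replicate 2 or LPC replicate 3 left out. No member reversed a call, though St3gal1, St3gal3, St3gal4 and St8sia4, none of which passed, changed sign in 2, 4, 1 and 1 alternatives. Over all tested genes the 1392 calls became 464 with no filter (16899 genes tested), 2334 after removal of length and GC trends, and 493 to 2014 when a library was left out. With the replicate number as a block there were 2841 calls and the same 2 members lower (St3gal6 adjusted p = 0.0138), while Ptprc (0.0267), Ugcg (0.031) and B4galt1 (0.0436) passed as well. Same-numbered libraries deviated together in pairs 2 and 3 (r across genes 0.56 and 0.41) but not in pair 1 (0.02). Vehicle replicate 2 with LPC replicate 3, and vehicle replicate 3 with LPC replicate 2, gave -0.50 and -0.45. Vehicle replicate 1 was close to uncorrelated with every LPC library (-0.09 to 0.06). Deviations were taken from the mean of each group's 3 libraries, so these correlations depend on each other and do not count as separate observations. The labels state no pairing, so the numbers were not taken as one, and whether the libraries were paired is not known. St3gal5 and St8sia6 had the lowest levels among the tested sialyltransferases.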
